A study of Mus musculus with 12 samples.

Results

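The 10 genes described here carry the signal of adrenocorticotropin (ACTH) into the steroid-making cell: the receptor Mc2r and its accessory protein Mrap, the G protein gene Gnas, the protein kinase A genes Prkaca, Prkar1a and Prkar2b, the phosphodiesterases Pde8a and Pde8b, and the transcription factors Creb1 and Crem. They were taken by symbol from the 24421 genes of the deposited table, and all 10 were found. Whole adrenals, cleaned of adherent fat, were taken from female mice aged 2 months on a mixed sv129-C57BL/6 background, and their RNA was sequenced in 12 libraries. The 4 Abcg1 cKO mice carried conditional Abcg1tm1Tall alleles together with the Cyp11b2tm1.1(cre)Brlt allele, which places Cre under the aldosterone synthase gene, and in them exon 3 of Abcg1 is removed. They were set against 4 Abca1 cKO mice, with conditional Abca1tm1Jp alleles and the same Cre, and 4 control mice. The series record gives these controls Cre alone, whereas the methods also admit littermates that carry a conditional allele, so whether each control carried Cre is not certain. Cre acts in cells that have expressed aldosterone synthase and in their descendants, and the study states that recombined cells are only part of the gland.

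Of the deposited values, only 2 columns of mean normalized counts made by the authors carry a name that ties them to the labels, and control and Abca1 cKO libraries (8 in all) share 1 mean, called the joint group below and "combined" in the plots. A normalized count is the number of reads assigned to a gene, divided by a size factor for the library. The spread between animals was therefore not used here, no test was run and no p-value is given, and every difference below is a difference between 2 means without a replicate check. Over all genes the means summed to 18889571 in Abcg1 cKO and 18311615 in the joint group, and raw depth per library is unknown. The mean of Abcg1 itself, which counts mainly exons that Cre leaves in place, was 249.7 in Abcg1 cKO and 305 in the joint group. All 9 cortical and all 8 medullary marker genes checked were well above 0, the lowest being 1369 in Abcg1 cKO and 1060.2 in the joint group.

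ACTH released by the pituitary binds the melanocortin 2 receptor, which reaches the cell surface only with the help of MRAP. The receptor acts through Gs to raise cyclic AMP, which frees the catalytic subunits of protein kinase A from their regulatory subunits. The kinase then phosphorylates CREB family factors and other proteins, steroid output rises within minutes, and phosphodiesterases end the signal by degrading cyclic AMP. In humans, inactivating variants of PRKAR1A and of phosphodiesterase genes including PDE8B are known from adrenocortical disease with excess cortisol.

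Short stretches near the start sites of 4 members and of 3 classical cyclic AMP-responsive genes show what a cyclic AMP response element (CRE) looks like in this set. RefSeq promoter windows for GRCm38.p6, the assembly of mm10, run from 250 bases before to 50 bases after a start site. They were given for 7 of the 10 members, in 21 windows. The full element TGACGTCA, a palindrome, was found in 1 of these 7 genes, Prkar1a, and in 2.03% of 27025 genes with windows. The shorter form TGACG, read on both strands as TGACG or CGTCA and also counted inside the full element, was found in 5 of the 7 and in 23.0% of all genes. The members have more windows per gene than most genes, and these overlap. Counted by window, TGACG was in 9 of the members' 21 windows and in 20.8% of all 32851, and the full element was in 2 overlapping windows of Prkar1a and in 1.79% of all. Most of the members' windows were also richer in G and C than the median of 52.7% over all windows, with a range from 43.3% to 81.7%. The shares were not matched for base content, so no excess of the element in the members can be read from them. The binding letters AAGGTCA of SF-1, on both strands, were in none of the 7 and in 5.38% of all genes. In the lines that follow the match is in capitals, and all stretches are given 5′ to 3′ on the strand of the gene.
Prkar1a, chr11:109650889-109650918, plus strand, in an intron of the GENCODE gene and upstream of a RefSeq start: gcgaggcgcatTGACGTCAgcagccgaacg
Gnas, chr2:174327699-174327728, plus strand, in an annotated exon: aagaggttggggCGTCAtcaggctggttag
Prkaca, chr8:83972846-83972875, plus strand, outside the GENCODE gene: gtctgcaactcgCGTCActcatccaggagc
Pde8a, chr7:81213169-81213198, plus strand, outside the GENCODE gene: gctgctttgcatTGACGccagcagccgctg
Dusp1, chr17:26508597-26508626, minus strand: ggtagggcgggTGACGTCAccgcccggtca
Fos, chr12:85473812-85473841, plus strand: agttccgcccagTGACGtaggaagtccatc
Per1, chr11:69100008-69100037, plus strand: gagctcagcggcTGACGtcggtttccctgg

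Prkar2b and Pde8b are the members with a window that had the highest ratios between the group means, and the bases upstream of their first start are shown for that reason. Neither stretch holds TGACG or CGTCA, which says only that these letters are not in this window, and the match of Pde8b counted above lies downstream, in an exon. The Prkar2b stretch has 231 bases and that of Pde8b 250, and Pde8b has further start sites whose bases are not shown.
Prkar2b, chr12:32061297-32061527, minus strand: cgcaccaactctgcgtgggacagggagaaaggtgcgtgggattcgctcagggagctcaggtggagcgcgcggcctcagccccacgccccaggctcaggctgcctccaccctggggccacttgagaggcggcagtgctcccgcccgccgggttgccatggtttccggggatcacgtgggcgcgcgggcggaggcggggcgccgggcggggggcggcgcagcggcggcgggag
Pde8b, chr13:95250337-95250586, minus strand: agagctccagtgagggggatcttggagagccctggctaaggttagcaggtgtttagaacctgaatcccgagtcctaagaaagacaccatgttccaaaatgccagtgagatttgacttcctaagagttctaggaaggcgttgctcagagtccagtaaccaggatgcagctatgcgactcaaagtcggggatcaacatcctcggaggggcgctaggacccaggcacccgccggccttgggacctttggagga

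Among the members, the accessory protein gene Mrap, the regulatory subunit gene Prkar2b, the phosphodiesterase gene Pde8b and the cyclic AMP-induced factor gene Crem had a mean at least 1.2-fold higher in Abcg1 cKO adrenals, whereas the receptor gene Mc2r did not. The threshold of 1.2 is the fold the study used, but the study joined it with a cutoff on the adjusted p-value, which is lacking here. All 10 members had a mean of at least 10 in either group, and 4 of them were past this fold on the higher side and 0 on the lower side. Of 14479 genes with such a mean, 10.8% were past it on the higher side and 12.6% on the lower side. After rescaling the means to equal totals these shares were 8.61% and 15.8%, and 3 members were past it, since Pde8b then had a log2 ratio of 0.26. Among the 4355 genes with a mean of at least 1000, which include every member but Pde8a, the shares were 8.45% higher and 2.16% lower. The median log2 ratio, Abcg1 cKO over the joint group with 1 added to each mean, was 0.21 over the members, 0.0012 over the 14479 genes and 0.05 over the 4355.

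**Figure D1:**
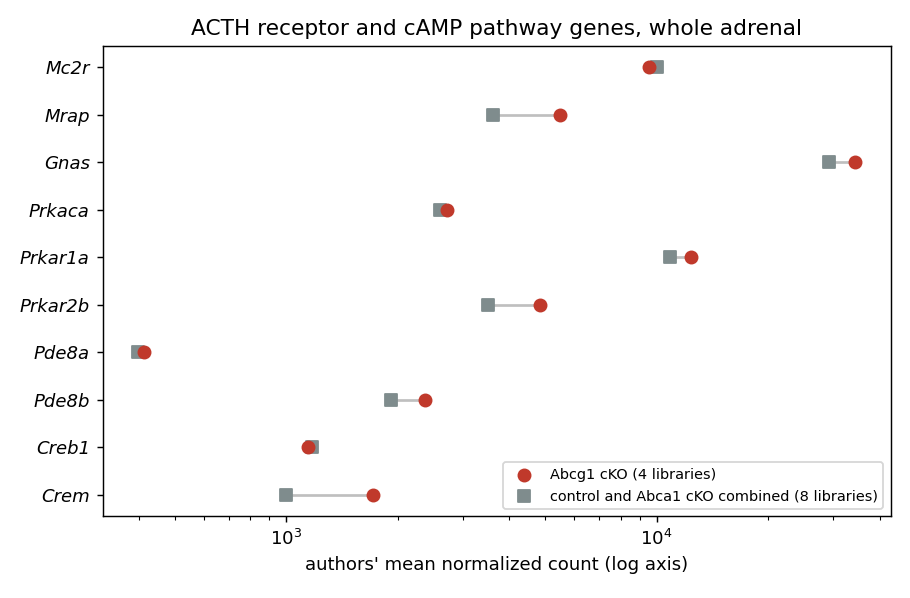
The authors' mean normalized count, on a log axis, of each of the 10 genes in Abcg1 cKO (red circles) and in the joint group of control and Abca1 cKO (grey squares), joined by a line. There are no error bars because single libraries could not be tied to groups. The gaps are widest for Crem (1719 in Abcg1 cKO, 995 in the joint group) and Mrap (5498 in Abcg1 cKO, 3606 in the joint group). The symbols of Mc2r, Prkaca, Pde8a and Creb1 nearly touch.

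At the top of the pathway, the accessory protein gene was past the fold and the receptor gene was not. Mc2r, on chromosome 18 (GRCm38 68406907 to 68429320), had a mean of 9559.5 in Abcg1 cKO and 10012 in the joint group, a log2 ratio of -0.07. A ratio at least as high was found for 64.4% of the 14479 genes and for 81.4% of the 4355. Mrap, on chromosome 16 (90738207 to 90749785), had a mean of 5498 in Abcg1 cKO and 3606 in the joint group, a log2 ratio of 0.61 and a fold of 1.52. Of the 4355 genes 1.93% had a ratio as high or higher. The count of Mrap per count of Mc2r was 0.575 in Abcg1 cKO and 0.360 in the joint group.

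The other melanocortin receptors, which serve pigment, appetite and exocrine glands, had almost no reads. Mc1r, Mc3r, Mc4r and Mc5r had means of at most 3.64 in Abcg1 cKO and 1.07 in the joint group. Mrap2, the second accessory protein gene, had a mean of 5.38 in Abcg1 cKO and 7.35 in the joint group. Mc2r was therefore the only receptor of its family with a mean of at least 10 in either group.

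Mrap and Mc2r are also transcribed in mouse fat cells, and markers of fat had higher means in the same libraries. All 10 adipocyte markers had a higher mean in Abcg1 cKO and 9 were past 1.2-fold, with log2 ratios from 0.16 to 2.58 and a median of 1.01. Their summed mean was 48361 in Abcg1 cKO against 23170.3 in the joint group, and none was at 0. Lep, the leptin gene, had a mean of 118.8 in Abcg1 cKO and 19.1 in the joint group. Adipoq, the adiponectin gene, had 2818 in Abcg1 cKO and 1019.3 in the joint group. Lipe, which encodes hormone-sensitive lipase and is also used in steroidogenic cells, had the smallest ratio of the list. The part of fat tissue in the mean of Mrap was not tested, and in bulk RNA more cells of a type cannot be told apart from more RNA per cell.

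Gnas, which encodes the Gs alpha subunit, had the highest count of the members and ranked 26 among the 14479 genes. Its mean was 34270.3 in Abcg1 cKO and 29275 in the joint group, a log2 ratio of 0.23 that stayed within the fold of 1.2. The gene lies on chromosome 2 (174284320 to 174346744) and has 24 annotated transcripts, among them those of the imprinted upstream promoters, and a gene-level count does not separate these from Gs alpha. It shares 1469 exonic bases with Gm20721 and 988 with Nespas, both on the opposite strand, and the sources used here do not say whether reads were counted by strand. Nespas had means of only 6.64 in Abcg1 cKO and 3.35 in the joint group.

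Of 11 other G protein genes, all with a mean of at least 10, only Gnai1 was past the fold. It encodes an inhibitory alpha subunit and had a mean of 858 in Abcg1 cKO and 630.4 in the joint group, a log2 ratio of 0.44. Gnb1, a beta subunit gene and the highest of the list, had 5626 in Abcg1 cKO and 5313 in the joint group.

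Next in the chain are the adenylyl cyclases, which make cyclic AMP, and 4 of 9 were past the fold on the higher side and none on the lower side. The shares of the 14479 genes were 10.8% higher and 12.6% lower. Summed over the 9 cyclases, the means were 5199 in Abcg1 cKO and 4853 in the joint group, a ratio of 1.07. Adcy8, a cyclase that calcium stimulates, had a mean of 79.0 in Abcg1 cKO and 20.05 in the joint group, a log2 ratio of 1.93. Adcy5 had 278 in Abcg1 cKO and 191.2 in the joint group, a ratio of 0.54. The other two were Adcy2 and Adcy1, with log2 ratios of 0.58 and 0.32. Adcy9, the cyclase with the highest mean, was not among them, at 2525 in Abcg1 cKO and 2405 in the joint group. It held 55.1% of the summed cyclase level per kilobase of exon in Abcg1 cKO and 55.8% in the joint group.

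Of the protein kinase A members only Prkar2b was past the fold. Prkar2b (chromosome 12, 31958476 to 32061296) encodes the RII beta subunit and had a mean of 4844 in Abcg1 cKO and 3498 in the joint group, a log2 ratio of 0.47 and a fold of 1.385. A ratio at least as high was seen in 2.80% of the 4355 genes. Prkar1a (chromosome 11, 109649405 to 109669656) encodes the RI alpha subunit, the member with the full CRE shown above. It had 12418 in Abcg1 cKO and 10874 in the joint group, a log2 ratio of 0.19. Prkaca (chromosome 8, 83972993 to 83996443), the gene of the main catalytic subunit, had 2718 in Abcg1 cKO and 2598 in the joint group, a log2 ratio of 0.07.

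The order of the regulatory subunit genes was the same in both groups. Per kilobase of exon, Prkar1a held 61.4% of the summed level of the 4 regulatory subunit genes in Abcg1 cKO and 65.2% in the joint group. Prkar2b held 28.3% in Abcg1 cKO and 24.8% in the joint group. Prkar1b and Prkar2a, the other 2 genes, made up the rest. Prkar1b was itself past the fold, with a mean of 1393 in Abcg1 cKO and 1089 in the joint group, a log2 ratio of 0.36. Of the catalytic genes, Prkaca held 77.9% in Abcg1 cKO and 77.6% in the joint group, and Prkacb the remainder.

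Few inhibitors and anchors of the kinase were past the fold. The inhibitor gene Pkib was past it on the lower side, with means of 31.8 in Abcg1 cKO and 43.8 in the joint group, a log2 ratio of -0.45. Of the 10 anchoring protein genes, whose products hold the kinase at places in the cell, 9 had a mean of at least 10. Only Akap5 among them was past the fold, at 19.3 in Abcg1 cKO and 14.7 in the joint group, a log2 ratio of 0.37. Akap9 had the highest count of them, at 3134 in Abcg1 cKO and 2931 in the joint group.

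Prkar2b is a subunit of neural and endocrine cells as well as of fat, and markers of the medulla also had higher means in these libraries. All 8 chromaffin markers were past the fold, with log2 ratios from 0.29 to 0.83, a median of 0.45 and a ratio of the summed means of 1.37. Th (tyrosine hydroxylase) had a mean of 14984 in Abcg1 cKO and 8765 in the joint group. Pnmt, which makes adrenaline, had 8747 in Abcg1 cKO and 4908 in the joint group. The part of medulla and of fat in the mean of Prkar2b was not tested.

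Markers of other cells had ratios near 0 or below it. Those of endothelium, of capsule and fibroblasts, and of macrophages had median log2 ratios of -0.10, 0.06 and -0.04. Of these 15 genes only the macrophage gene Cd68 was past the fold, at -0.30. Of 5 lymphocyte markers 4 had a mean of at least 10 and 3 of these were past it on the lower side, with a median of -0.63. These 3 had low counts. Cd3d (6.64 in Abcg1 cKO, 11.2 in the joint group) and Cd79a (9.09 and 21.6) passed the filter only through the joint group. Cd79b had 16.1 in Abcg1 cKO and 24.7 in the joint group. Ptprc, with 380 in Abcg1 cKO and 438 in the joint group, stayed within the fold at -0.20. The 4 globin genes taken as erythroid markers were among 5178 genes listed at 0 in both groups. Why they have no counts was not tested, so these zeros do not show that erythroid RNA was absent.

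**Figure D2:**
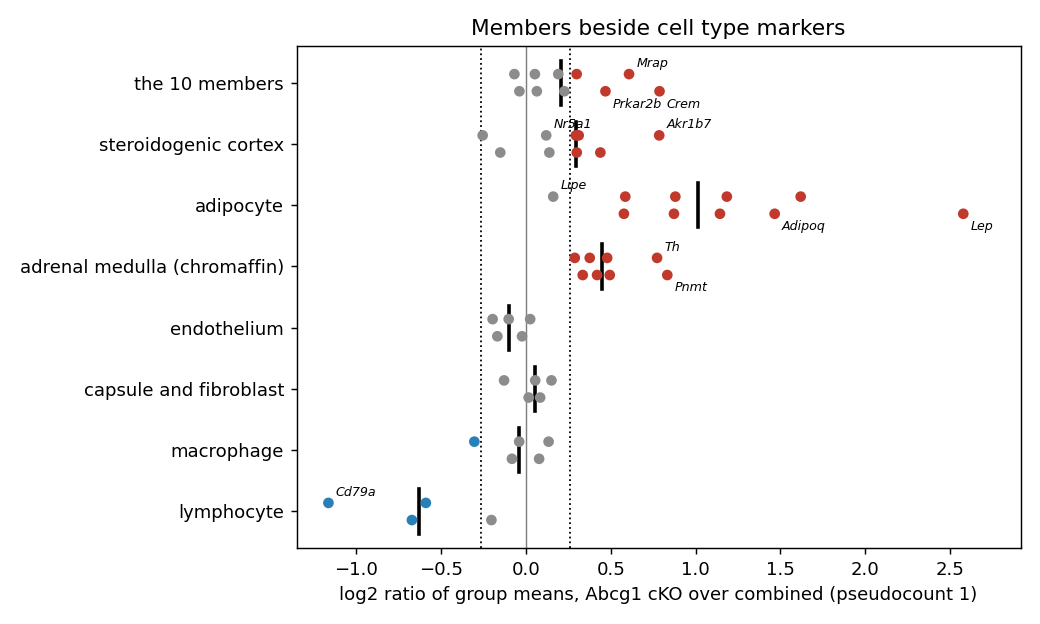
log2 ratio of the group means, Abcg1 cKO over the joint group, for the 10 members and for cell type markers with a mean of at least 10. Each point is a gene, black bars are medians, dotted lines mark 1.2-fold, red is past it on the higher side and blue on the lower side. The adipocyte median of 1.01 and the chromaffin median of 0.45 lie above the members' median of 0.21.

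The markers of the cortex, where the pathway acts, are no baseline free of the pathway. Star and Cyp11a1 are also listed below as responsive to cyclic AMP, and Akr1b7 responds to ACTH. Of 9 cortical markers, 5 were past the fold on the higher side and none on the lower side, with a median log2 ratio of 0.30. Nr5a1, which encodes SF-1, had 18734 in Abcg1 cKO and 17232 in the joint group, a ratio of 0.12. Akr1b7, an ACTH-responsive gene of the zona fasciculata, had 61841 in Abcg1 cKO and 35862 in the joint group, a ratio of 0.79. Star and the enzyme genes Cyp11a1, Cyp21a1 and Cyp11b1 had log2 ratios of 0.44, 0.30, 0.30 and 0.31. Hsd3b1, Dab2 and the aldosterone synthase gene Cyp11b2 stayed within the fold, at -0.15, -0.25 and 0.14. Crem, Mrap, Prkar2b and Pde8b lay above the cortical median, Pde8b only just, and the other 6 members lay below it.

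Of the pair of PDE8 genes, which encode phosphodiesterases of high affinity for cyclic AMP, Pde8b was the more abundant and the one past the fold. Pde8b (chromosome 13, 95024454 to 95250336) had a mean of 2362 in Abcg1 cKO and 1919 in the joint group, a log2 ratio of 0.30 and a fold of 1.23, only just past the threshold. It shares 447 exonic bases with the antisense gene Gm48420. Pde8a (chromosome 7, 81213596 to 81334533) had 413 in Abcg1 cKO and 398 in the joint group, a log2 ratio of 0.05. The count of Pde8b per count of Pde8a was 5.71 in Abcg1 cKO and 4.82 in the joint group.

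Set beside the other phosphodiesterases of cyclic AMP, Pde8b ranked near the top. Over 15 such genes with a mean of at least 10, Pde8b held 22.8% of the summed level per kilobase in Abcg1 cKO and 19.1% in the joint group. Pde8a held 5.81% in Abcg1 cKO and 5.76% in the joint group. Pde2a, which cyclic GMP stimulates, held most, at 39.6% in Abcg1 cKO and 46.3% in the joint group. Its mean was 4283 in Abcg1 cKO and 4871 in the joint group, a log2 ratio of -0.19 that stayed within the fold.

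Of the 13 other phosphodiesterase genes with a mean of at least 10, 4 were past the fold on the higher side and 1 on the lower side. The shares of the 14479 genes were 10.8% higher and 12.6% lower. Pde3b, the form that insulin activates in fat cells, had a mean of 320 in Abcg1 cKO and 181 in the joint group, a log2 ratio of 0.82. Pde4d had 121.6 in Abcg1 cKO and 78.3 in the joint group, a ratio of 0.63. Pde1c and Pde3a had ratios of 0.48 and 0.39. Pde1c reached a mean of 10 only in Abcg1 cKO, at 10.3 against 7.13 in the joint group, so the filter itself favoured a call on the higher side. Pde4a was the gene past the fold on the lower side, with 96.2 in Abcg1 cKO and 125 in the joint group, a ratio of -0.38.

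**Figure D3:**
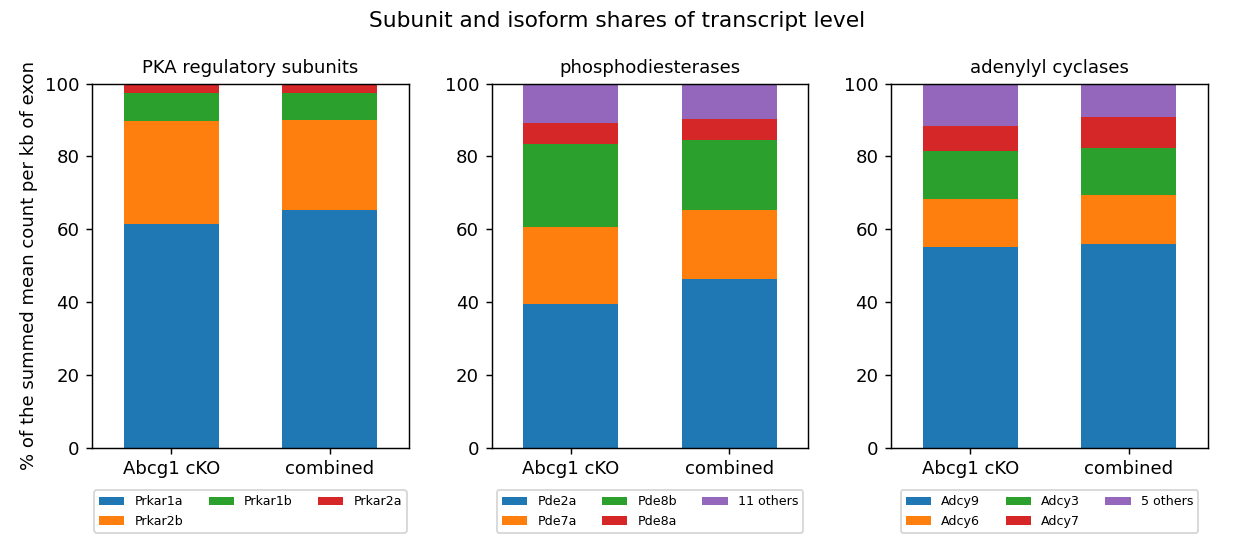
Shares of the summed mean count per kilobase of exon among the protein kinase A regulatory subunit genes, the phosphodiesterase genes and the adenylyl cyclase genes, in Abcg1 cKO (left bar) and in the joint group (right bar), in percent. Prkar1a, Pde2a and Adcy9 hold the largest share of their set in both bars, and Pde8b holds 22.8% in Abcg1 cKO and 19.1% in the joint group.

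At the end of the pathway, the factor gene that cyclic AMP is known to induce was past the fold, and the gene of the factor that it activates was not. Creb1 (chromosome 1, 64532645 to 64604548), whose protein is activated by phosphorylation, had a mean of 1141 in Abcg1 cKO and 1171 in the joint group, a log2 ratio of -0.04. Crem (chromosome 18, 3266048 to 3337748) had 1719 in Abcg1 cKO and 995 in the joint group, a log2 ratio of 0.79. Its fold of 1.73 was the largest of the 10 members, and 0.941% of the 4355 genes had a ratio as high or higher. The count of Crem per count of Creb1 was 1.51 in Abcg1 cKO and 0.850 in the joint group. Crem has 39 annotated transcripts, and its known products include activators, repressors and the early repressor ICER, which cyclic AMP induces from an internal promoter. A gene-level count does not tell these apart, and the gene also shares 472 exonic bases with Gm6225 on the opposite strand.

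Of 9 partners of CREB, 1 was past the fold on the higher side and 1 on the lower side. Sik1, a salt-inducible kinase that ACTH induces and that holds back the CRTC coactivators, had a mean of 2098 in Abcg1 cKO and 1202 in the joint group, a log2 ratio of 0.80. The coactivator gene Crtc3 had 575 in Abcg1 cKO and 704 in the joint group, a ratio of -0.29. Among 5 genes of other cyclic AMP effectors, 3 had a mean of at least 10. Of these the exchange factor gene Rapgef4, with 8590.0 in Abcg1 cKO and 8820.0 in the joint group, stayed within the fold at -0.04. Rapgef3, of the same family, and the Popeye domain gene Popdc2 were past it, at -0.29 and 0.66. Popdc2 reached a mean of 10 only in Abcg1 cKO, at 10.8 against 6.43 in the joint group, so the filter itself favoured a call on the higher side.

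All 10 genes listed as responsive to cyclic AMP in steroidogenic or other cells had a higher mean in Abcg1 cKO, and 9 were past the fold, with a median log2 ratio of 0.67. The list was written with earlier results of these data known and is no independent support, and Star and Cyp11a1 are also among the cortical markers. The part of fat, of medulla or of other signals in these means, and in those of Crem and Sik1, was not tested. The orphan receptor gene Nr4a2 had a mean of 1323 in Abcg1 cKO and 445 in the joint group, a ratio of 1.57. Its relative Nr4a1 had 18172 in Abcg1 cKO and 9327 in the joint group, a ratio of 0.96. The immediate early gene Fos had 1183 in Abcg1 cKO and 708 in the joint group, a ratio of 0.74.

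The remaining genes of the list include those of cholesterol supply. Star, which delivers cholesterol into mitochondria, had the highest count of the list, with 507891 in Abcg1 cKO and 374521 in the joint group. Scarb1, a receptor gene for the uptake of lipoprotein cholesterol, had a mean of 34944 in Abcg1 cKO and 20445 in the joint group, a log2 ratio of 0.77. The clock gene Per1 and the phosphatase gene Dusp1 had ratios of 0.59 and 0.29, and the chaperone gene Hspa5, at 0.14, was the gene within the fold. Of the 10 genes 7 had promoter windows, and TGACG or CGTCA was found in all 7, beside 23.0% of all genes with windows. The Dusp1, Fos and Per1 stretches shown above are among these matches, and the full element was in 1 of the 7. The genes were listed because they are known to respond to cyclic AMP, so matches were likely in advance and are no support.

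**Figure D4:**
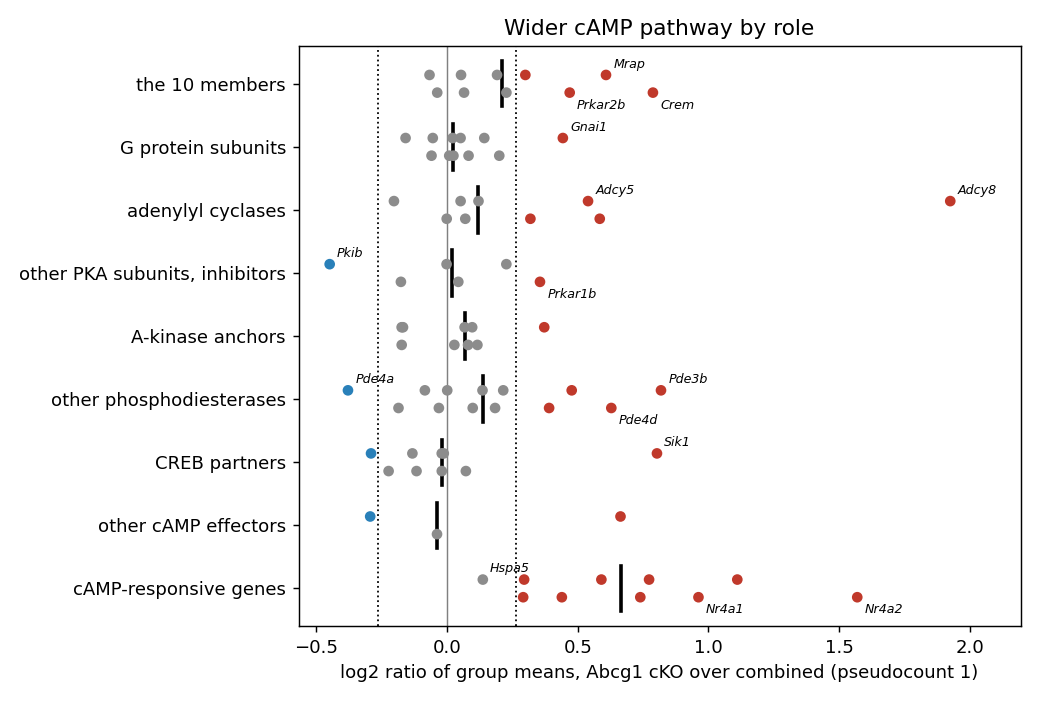
log2 ratio of the group means, Abcg1 cKO over the joint group, for the 10 members and for wider pathway genes with a mean of at least 10, by role. Each point is a gene, black bars are medians, dotted lines mark 1.2-fold, red is past it on the higher side and blue on the lower side. The cyclic AMP-responsive genes have the highest median, 0.67, and G protein subunits and CREB partners lie around 0.

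Over the wider pathway, 70 of 79 listed genes had a mean of at least 10. Of these, 22 were past the fold on the higher side and 4 on the lower side, with a median log2 ratio of 0.08. The shares of the 14479 genes were 10.8% higher and 12.6% lower. Without the cyclic AMP-responsive genes the counts were 13 higher and 4 lower of 60, and the median was 0.05. Both counts of higher genes include Pde1c and Popdc2, which passed the filter only through Abcg1 cKO. With a mean of at least 50, 18 wider pathway genes were past the fold on the higher side and 3 on the lower side. The shares of all such genes were then 9.36% higher and 8.76% lower. Of the 18 genes, 9 come from the cyclic AMP-responsive list, which is no independent support. The members' median of 0.21 stands beside 0.0012 over the 14479 genes.

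**Figure D5:**
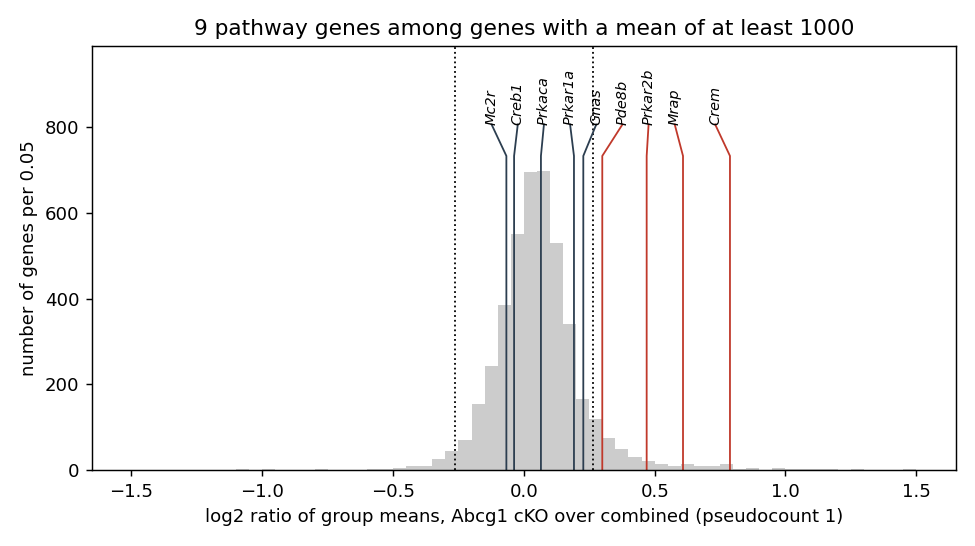
Number of genes by log2 ratio of the group means, Abcg1 cKO over the joint group, for the 4355 genes with a mean of at least 1000 (grey bars, with ratios beyond 1.5 either way put in the end bars). Vertical lines mark 9 members, red where they are past 1.2-fold, and dotted lines mark that fold. Crem, Mrap and Prkar2b lie in the upper tail and Mc2r and Creb1 left of the middle.

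Corrected for the length of exon, Mc2r was the most abundant of the 10 transcripts in both groups, at 5861 counts per kilobase in Abcg1 cKO and 6139 in the joint group. Mrap ranked next in Abcg1 cKO at 3478, above Gnas at 3064 and Prkar1a at 2874. In the joint group Mrap stood at 2281, below Gnas at 2617 and Prkar1a at 2516. Prkar2b lay above Prkaca in Abcg1 cKO, at 1326 against 1092, and below it in the joint group, at 958 against 1044. Pde8b, Crem, Pde8a and Creb1 followed in this order in both groups, from 402 down to 83.1 in Abcg1 cKO and from 326 down to 85.2 in the joint group. The spread between animals was not used here, so neighbours in this order cannot be told apart by it. These levels also depend on the length taken, and with the longest annotated transcript in place of all exons Gnas came first, at 8683 in Abcg1 cKO and 7417 in the joint group. With that length Crem also lay above Pde8b in Abcg1 cKO, at 586 against 558. Creb1 then lay above Pde8a, at 136 against 109 in Abcg1 cKO and 140 against 105 in the joint group.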

How the data were processed

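Whole-adrenal RNA was sequenced as polyA-selected stranded libraries on 2 kinds of sequencer (NovaSeq and NextSeq), and the sources used here do not assign libraries to them. The submitters' notes and the methods name bcl2fastq 2.20.0.422 for demultiplexing, cutadapt 4.0 for trimming, STAR 2.7.10a for mapping to mm10, HTSeq 0.13.5 for counting per gene and DESeq2 1.38.3 for normalization. The signal values used here are group means of normalized counts, deposited by the authors. The table also holds fold changes, errors and p-values of the authors' own comparison, which were not used, and 12 columns of single libraries whose names match no sample label, which were not used either. Hence 4 Abcg1 cKO libraries were compared as 1 mean with the mean of 8 control and Abca1 cKO libraries, and control alone, Abca1 cKO alone and the planned tests between animals were not analysed here. The depth per library is unknown.

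Ratios of the group means were taken on the log2 scale with 1 added to each, in Python 3.11.15 with pandas 2.3.3, and counted past a fold of 1.2 among genes with a mean of at least 10 in either group. The calculation was tested on simulated counts with planted changes larger than 1.2-fold and no spread between animals beyond counting noise. This checked the arithmetic and not the calls at 1.2-fold. Exons, overlaps and positions came from GENCODE M21 (GRCm38) and matched all 138 listed genes, and promoter sequences came from RefSeq. The members and lists were chosen with earlier results of these data known. Genes named were the members, wider pathway genes past the fold (1 of which is counted but not reported here), the highest gene of each list, and adipocyte and cortical markers. The melanocortin receptors, Mrap2 and single markers of other cells were added after their values were seen. Alternatives were other pseudocounts, scalings, filters and a fold of 1.5, with a mean of at least 1000 added after the data were seen, and a log2 ratio was taken as moved beyond 0.1.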

Additional observations from a re-analysis of the deposited data

How the results depend on the processing

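With pseudocounts of 0.1 and 10, with ratios centred on the median, with equal totals, with no filter and with a mean of at least 50, the counts of members and of wider pathway genes past the fold stayed within 1.5 times those reported. The members' median log2 ratio was 0.16 with equal totals, the lowest of these. The log2 ratio ranged from 0.74 to 0.79 for Crem, from 0.56 to 0.61 for Mrap, from 0.42 to 0.47 for Prkar2b and from 0.26 to 0.30 for Pde8b over pseudocounts and scalings. With a fold of 1.5 in place of 1.2, 2 members (Crem and Mrap) and 11 wider pathway genes were past it, all 11 higher and 0 lower, beside 2.89% of the 14479 genes higher and 3.63% lower. With a mean of at least 1000, 11 wider pathway genes were past 1.2-fold, 11 higher and 0 lower. The shares of the 4355 genes were then 8.45% higher and 2.16% lower. Of these 11 genes, 9 come from the cyclic AMP-responsive list, which is no independent support. The 11 genes past 1.5-fold also draw on that list, and they include Popdc2, which passed the filter only through Abcg1 cKO. No paired analysis was possible because the columns of single libraries carry no replicate number, and leaving out single replicates, a replicate block and tests on counts were not run for the same reason. The spread between animals, and a difference between control and Abca1 cKO, are not shown by these means.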
